A study of Bos taurus with 9 samples.

Results

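The genes described here build and move cilia. They were chosen by a rule on symbols, which was written with earlier results of these data known and uses no measured value: every gene listed by the authors whose name starts with IFT, BBS, CFAP, DNAH, DNAI, DNAAF or RSPH followed by a digit, or with DYNC2, and in addition FOXJ1, MCIDAS, CCNO, RFX2, RFX3, RIBC1, RIBC2, TEKT1 and PIFO. The rule took 114 of the 20679 genes listed, and PIFO had no row. The 114 were 45 CFAP genes, 17 IFT genes, 13 DNAH genes, 9 DNAAF genes, 7 BBS genes, 6 RSPH genes, 5 DNAI genes, 4 DYNC2 genes, the 5 regulators FOXJ1, MCIDAS, CCNO, RFX2 and RFX3, and the 3 axonemal microtubule proteins RIBC1, RIBC2 and TEKT1.

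RNA-seq was performed on bovine (Bos taurus) uterine gland fragments after 5 days of embedded culture in a medium with albumin, insulin, transferrin, selenite and ascorbic acid, all of which the 3 groups shared. CYST fragments were grown in Matrigel, a basement membrane gel, without EGF (epidermal growth factor). MAT fragments had EGF in Matrigel, in which the fragments form uterine gland-like (UG-LIKE) structures, and MAT + COL fragments had EGF in Matrigel with type I collagen. Each group had 3 libraries. The fragments were obtained by digesting endometrium and sieving, so RNA came from whole fragments and not from sorted cells, and the labels give neither an animal nor its age for any library.

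A cilium is a microtubule rod, the axoneme, that grows from a basal body and is covered by membrane. Intraflagellar transport (IFT) trains, assembled from the IFT-A and IFT-B complexes, carry cargo to the tip on kinesin and return on dynein-2, whose subunits are the DYNC2 genes. The BBSome, made of BBS proteins, moves membrane proteins in and out. A primary cilium, which many epithelial and stromal cells have, uses these parts for sensing. Motile cilia, which some cells of the uterine lining bear in tufts, need in addition axonemal dynein arms (DNAH and DNAI), the factors that assemble the arms in the cytoplasm (DNAAF), radial spokes (RSPH) and many CFAP proteins. MCIDAS and CCNO drive the production of many basal bodies in multiciliated cells, FOXJ1 switches on motile cilium genes, and RFX2 and RFX3 act at genes of both kinds of cilium.

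The total of counted reads was 6568968 to 17948600 per library, and the members took 0.106% to 0.165% of them. A count of 0 allows up to 3 counts, which is 0.167 to 0.457 CPM (counts scaled to the library total) at these depths. This covers counting error only, since the reads carried no molecular identifiers. The labelled cell type, epithelial cells, was checked on EPCAM, CDH1, KRT8, KRT18, KRT19 and CLDN4, all of which were found in every library. Their summed TPM (a level scaled to gene length and library total) was 17667 to 19091 in CYST, 28233 to 43970 in MAT and 29106 to 39217 in MAT + COL, so both EGF groups lay above CYST. Most of this sum was KRT8 and KRT19, while KRT18 and CLDN4 overlapped between the groups and CDH1 overlapped between CYST and MAT + COL. All 8 stromal markers, among them collagens, DCN and VIM, were also found in every library, with sums of 2225 to 4798 in CYST, 1191 to 3742 in MAT and 2197 to 4249 in MAT + COL. VIM was higher without overlap in both EGF groups, at 238 to 312 TPM in CYST, 452 to 796 in MAT and 327 to 810 in MAT + COL. PDGFRB was lower without overlap, at 0.80 to 1.19, 0.21 to 0.66 and 0.50 to 0.66 TPM in the same order. Sums over endothelial markers stayed at 26.1 TPM or below, those over immune markers at 14.4 or below and those over smooth muscle markers at 75.3 or below. The gland transcription factors FOXA2 and SOX17 were low, with a sum of 1.31 to 12.5 TPM. In such whole-fragment RNA, fewer cells of a type and less RNA per cell cannot be told apart.

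By family median, the genes of transport were expressed at the higher levels and those of the motile axoneme at low levels. By summed TPM the 45 CFAP genes lay above the 17 IFT genes, at a mean of 342 against 286 in CYST. By mean TPM over the 9 libraries, the median gene was at 28.5 among DYNC2 genes, 15.3 among IFT genes and 7.92 among BBS genes, against 1.83 among DNAI genes, 1.81 among DNAAF genes, 1.69 among CFAP genes, 1.55 among RSPH genes and 0.22 among DNAH genes. In all, 51 members were above 1 TPM in every library and 19 above 10 TPM, and 7 of these 19 were IFT genes. At the other end, CFAP97D1, DNAH14, IFT27 and RSPH6A had no count in any library, and 8 members, these 4 included, never had more than 3 counts.

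**Figure D1:**
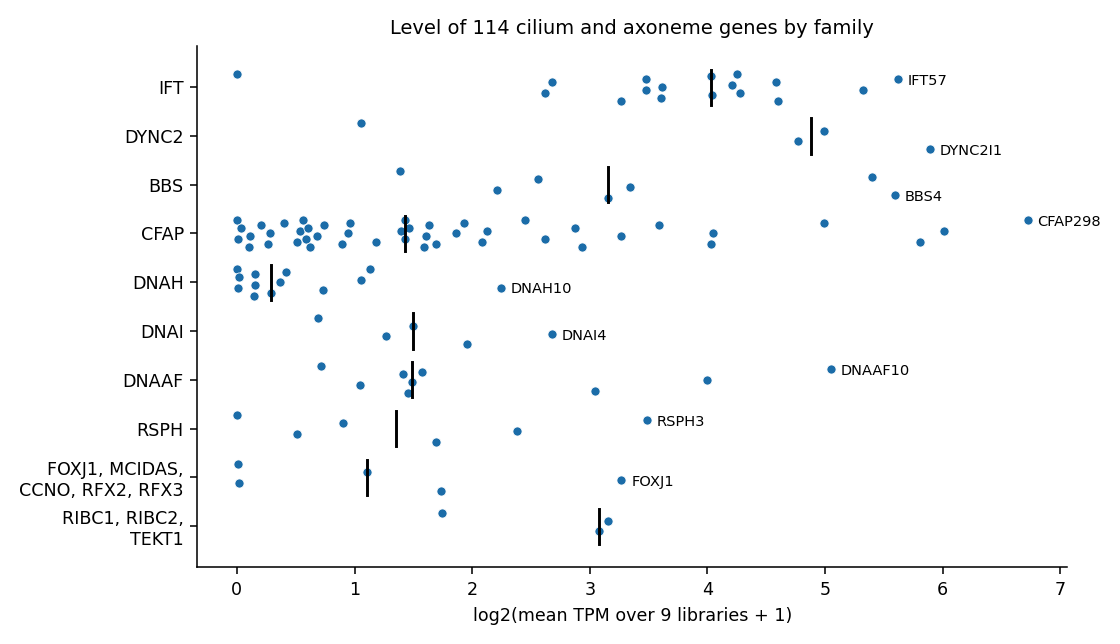
Level of each of the 114 cilium and axoneme genes by family, on an axis of log2(mean TPM over 9 libraries + 1). Each point is a gene and each vertical bar the median of its family; the IFT, DYNC2 and BBS genes lie to the right of most DNAH, DNAI, RSPH and CFAP genes.

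By mean TPM over the 9 libraries, though not in CYST alone, the best expressed member was CFAP298, a protein needed for motile cilia and dynein arm assembly. It was at 86.4 ± 15.3 TPM in CYST, 108 ± 30.1 in MAT and 119 ± 36.9 in MAT + COL (SD, n = 3 for every value given in this way). CFAP20, a protein at the junction of the axonemal doublets, and CFAP36, which binds the ciliary GTPase ARL3, followed within that family, at 53.2 ± 8.79 and 63.5 ± 10.7 TPM in CYST. The highest IFT gene was IFT57, an IFT-B subunit, at 44.3 ± 1.44, 43.8 ± 13.3 and 56.4 ± 21.1 TPM in CYST, MAT and MAT + COL. BBS4, a BBSome subunit, was at 37.7 ± 7.94, 46.1 ± 6.93 and 58.3 ± 15.6 TPM in the same order. For these genes the groups overlapped or differed by less than their spread, except that CFAP20 was higher in all 3 MAT libraries than in any CYST library.

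Among the DNAH genes only DNAH10, an inner arm heavy chain, was above 1 TPM in every library, at 4.72 ± 1.47 TPM in CYST, 3.36 ± 0.522 in MAT and 3.11 ± 0.811 in MAT + COL. The highest DNAI gene, DNAI4, an axonemal dynein intermediate chain, was at 5.68 ± 0.341, 4.33 ± 1.93 and 6.15 ± 3.39 TPM. DNAAF10 led the assembly factors at 31.4 ± 4.90, 34.1 ± 1.61 and 31.1 ± 1.48 TPM, and the radial spoke protein RSPH3 led its family at 10.8 ± 2.49, 11.1 ± 1.57 and 8.76 ± 1.10 TPM. None of these 4 genes was called in any comparison, and DNAAF10 was lower in all 3 MAT + COL libraries than in any MAT library.

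Among the regulators, MCIDAS and CCNO were nearly silent, while FOXJ1, RFX2 and RFX3 were found in every library. MCIDAS and CCNO, neighbours on chromosome 20 (23907548 to 23914998 and 23901218 to 23904856; all positions are those of the deposited tables, bovine build ARS-UCD2.0), had no count in 8 libraries and 2 and 1 counts in MAT + COL replicate 1. RFX2 lay between 0.87 and 2.02 TPM and RFX3 between 1.33 and 3.20 TPM over all libraries. FOXJ1 had 33 to 248 counts in every library. Of the 10 markers listed for motile ciliated cells, of which FOXJ1, MCIDAS and CCNO are members here, CDC20B had no count anywhere. In every library but CYST replicate 1, where FOXJ1 was the highest of the 10, TPPP3 and CAPS carried most of their sum, which was 31.9 to 86.1 TPM in CYST, 46.0 to 86.3 in MAT and 50.8 to 91.0 in MAT + COL.

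To examine the effect of EGF, MAT was compared with CYST by edgeR's quasi-likelihood test over 12074 genes. Of the 114 members, 83 passed the filter on low counts and 31 did not. One member was called at an adjusted p under 0.05: DYNC2I1, an intermediate chain of dynein-2 that is needed for the return of IFT trains, fell with EGF. That is 1.2% of the tested members, against 1.79% of all genes tested. With the replicate number as a block, DYNC2I1, IFT56, IFT80 and DNAH11 were called, all lower in MAT, which is 4.82% of the members against 10.6% of all genes. No member was called higher in MAT in either fit. The members were therefore called no more often than genes in general. Of the 114 members 38 had a mean below 1 TPM over the 9 libraries, and the part of level in these shares was not tested.

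The median over the tested members was on the same side. The Log2FC was negative for 56 of the 83 and positive for 27, with a median of -0.28 against 0.01 over all genes tested, and the median was -0.07 when CYST replicate 3 was left out. The unadjusted p was under 0.05 for 6 members, all with a negative Log2FC, or 7.23% against 20.7% of all genes. The TPM of every MAT library lay below that of every CYST library for 12 members, or 14.5% against 11.8% of all genes, and above it for 5 members, or 6.02% against 11.9%. The study's criteria for differentially expressed genes (DEGs) add a change past 1 on the log2 scale and a minimum TPM above 1. The minimum was read here as more than 1 TPM in each library. They were applied to the edgeR test used here and not to the study's own test, which gave a different number of DEGs. By these criteria DYNC2I1 was a DEG, as were 175 of all genes tested (1.45%). With the block, IFT56 and IFT80 met these criteria as well, which makes 3.61% of the members against 6.01% of all genes. The epithelial markers KRT8, KRT19, EPCAM and CDH1 were higher in every MAT library than in any CYST library, KRT18 and CLDN4 were not, and their part in these differences was not tested.

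**Figure D2:**
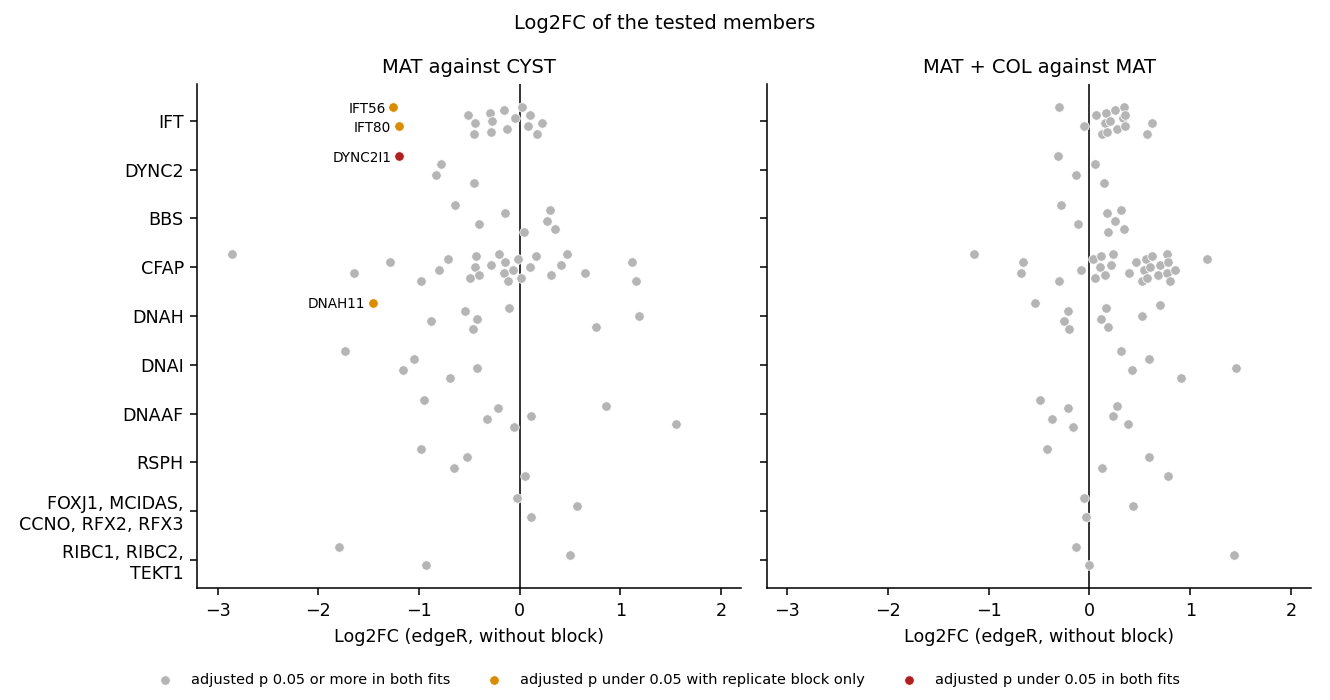
Log2FC of each tested member by family, for MAT against CYST on the left and MAT + COL against MAT on the right (edgeR without block). The left panel has DYNC2I1 in red at -1.19 and IFT56, IFT80 and DNAH11 in orange, called with the replicate block only; no gene on the right is coloured, and most of its points lie to the right of 0.

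DYNC2I1 (ENSBTAG00000024157, chromosome 4, 119527456 to 119575482, plus strand) was at 116, 106 and 69.9 TPM in CYST replicates 1 to 3, at 47.5, 38.7 and 40.4 TPM in MAT and at 38.0, 36.6 and 32.9 TPM in MAT + COL. The 3 groups did not overlap, and CYST replicate 3 was the lowest of its group. For MAT against CYST its Log2FC was -1.19 (SE 0.19), with an adjusted p of 0.0332 by edgeR and 0.00918 with the block. The fall was seen in each same-numbered pair, with a ratio of MAT to CYST TPM of 0.410, 0.366 and 0.578. Its adjusted p was 0.0263 without CYST replicate 3, and 0.0693 to 0.140 when CYST replicate 1 or 2 or any of the 3 MAT replicates was left out.

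The 3 other dynein-2 subunits also had a negative Log2FC. DYNC2I2, the second intermediate chain, was at 39.9, 45.0 and 36.6 TPM in CYST and 27.4, 27.5 and 16.7 TPM in MAT, without overlap (Log2FC -0.78, SE 0.23). It was not called with or without the block in the 6 libraries (edgeR adjusted p = 0.113, and 0.0591 with the block) but was with the block in all 9 libraries (0.0303), a fit chosen after the data had been seen. DYNC2LI1, the light intermediate chain, was at 41.5, 33.5 and 22.1 TPM in CYST and 23.6, 23.9 and 22.9 TPM in MAT, so the lowest CYST library lay below all MAT libraries. DYNC2H1, the motor heavy chain, was the lowest of the 4 at 2.10, 1.83 and 0.56 TPM in CYST and 1.02, 0.59 and 0.84 TPM in MAT, again with overlap. The summed level of the 4 genes was 172 ± 37.3 TPM in CYST, 90.3 ± 9.41 in MAT and 87.5 ± 19.1 in MAT + COL. DYNC2I1, the only 1 of the 4 called in the 6 libraries, was the largest part of this sum in each group.

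**Figure D3:**
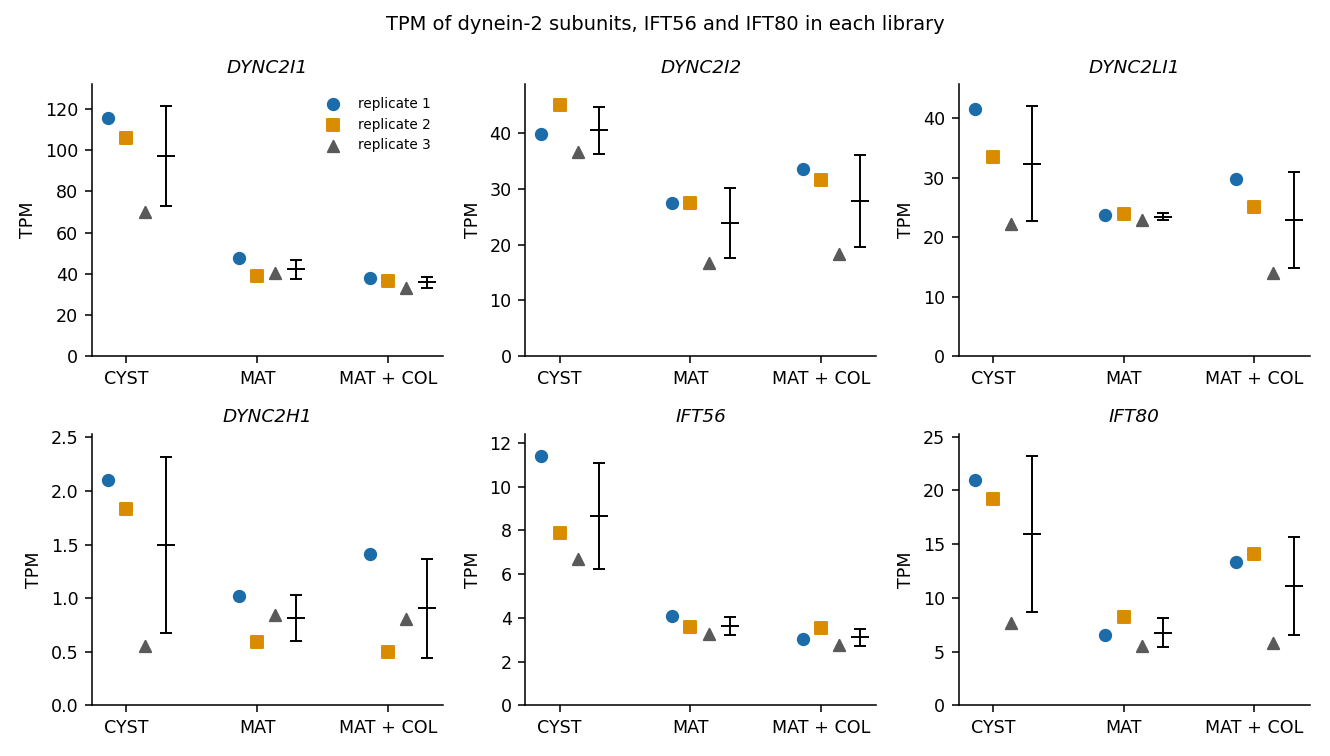
TPM of the 4 dynein-2 subunits, IFT56 and IFT80 in each of the 9 libraries, with the replicate number shown by the marker and the group mean ± SD as bars (n = 3). The CYST libraries of DYNC2I1 lie between 69.9 and 116 TPM and all EGF libraries at 47.5 TPM or below, whereas IFT80 and DYNC2LI1 of CYST replicate 3 lie near the EGF libraries.

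Among the 16 tested IFT genes the median Log2FC was -0.22, and 11 were negative. IFT56 (chromosome 4), an IFT-B subunit that helps to carry motility proteins, was at 11.4, 7.91 and 6.70 TPM in CYST, 4.06, 3.59 and 3.26 in MAT and 3.02, 3.53 and 2.77 in MAT + COL, and no EGF library reached the lowest CYST library. Its Log2FC for MAT against CYST was -1.25 (SE 0.30), with an edgeR adjusted p of 0.0724, and 0.0381 with the block. IFT80, another IFT-B subunit, was at 20.9, 19.2 and 7.63 TPM in CYST and 6.58, 8.18 and 5.51 in MAT, so that CYST replicate 3 fell among the MAT libraries. Its Log2FC was -1.20 (SE 0.34), with an edgeR adjusted p of 0.102, 0.0366 with the block and 0.0445 without CYST replicate 3 and without the block. IFT20, an IFT-B subunit that also sits at the Golgi, and IFT22 were lower in MAT without overlap, but neither was called.

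Of the axonemal dynein genes, 8 of 13 DNAH genes and all 5 DNAI genes were tested, none was called without the block and 1 with it. DNAH11, an outer arm heavy chain, was at 2.02, 2.10 and 0.75 TPM in CYST and 0.76, 0.64 and 0.34 in MAT, an overlap by one library. Its Log2FC was -1.46 (SE 0.46), with an edgeR adjusted p of 0.131, 0.0392 with the block and 0.0807 with the block in all 9 libraries, where it was not called. Its region overlaps by 692 bases that of CDCA7L on the other strand, a gene at 67.5 TPM on average, and the strand setting of the counting is not stated. All 5 DNAI genes had a negative Log2FC, with a median of -1.05, and none was called. DNAH6, which did not pass the filter in the 6 libraries, had 18, 6 and 15 counts in CYST and 0, 1 and 0 in MAT. Over all 9 libraries DNAH6 passed the filter only through its counts in CYST and MAT + COL. Its call as lower in MAT with the block there (edgeR adjusted p = 0.0489) is therefore no support for a fall. In MAT + COL it was higher than in MAT without overlap, and it overlapped with CYST. DNAH12, an inner arm heavy chain, was at 0.15 to 0.51 TPM in CYST and 0.50 to 1.41 in MAT (Log2FC 1.19, SE 0.65, edgeR adjusted p = 0.352).

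The CFAP, DNAAF, RSPH and BBS families had medians of -0.15, -0.06, -0.59 and 0.04 over their 26, 7, 4 and 7 tested genes, with none called. CFAP20 was at 63.1, 50.4 and 46.2 TPM in CYST and 87.5, 69.4 and 65.8 in MAT, higher without overlap and not called (Log2FC 0.47, SE 0.21, edgeR adjusted p = 0.255). DNAAF9, an outer arm dynein factor, was at 0.03, 0.46 and 0.84 TPM in CYST and 2.27, 1.00 and 1.03 in MAT (Log2FC 1.55, SE 0.91, edgeR adjusted p = 0.381). CFAP20DC was at 2.94, 5.87 and 2.23 TPM in CYST and 6.21, 6.35 and 4.51 in MAT, with overlap. These were, with DNAH12 and RFX3, the 5 members with a positive Log2FC and the smallest p, and none was called. The smallest adjusted p among them was that of CFAP20 with the block in all 9 libraries (0.0576).

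Among the single genes of the rule, RIBC2, a protein inside the axonemal microtubules, was at 2.12, 1.95 and 5.63 TPM in CYST and 1.17, 0.95 and 0.87 in MAT (Log2FC -1.79, SE 0.72, edgeR adjusted p = 0.211). The Log2FC of RIBC2 ran from -2.08 to -0.94 over the sets without 1 library. Its relative RIBC1 was at 8.78, 9.85 and 15.5 TPM in CYST and 8.02, 6.62 and 4.21 in MAT (Log2FC -0.93, adjusted p = 0.257). Both were lower without overlap and not called. TEKT1, a tektin of the same kind, overlapped between the groups (Log2FC 0.50, adjusted p = 0.581), as did RFX2 (-0.03, adjusted p = 0.982). RFX3 was at 1.33, 1.85 and 1.96 TPM in CYST and 2.39, 3.19 and 2.24 in MAT (0.57, adjusted p = 0.392). For FOXJ1 the Log2FC was 0.11 (SE 0.77) without the block and -0.12 (SE 0.36) with it, so no direction can be given.

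To examine the effect of collagen I, MAT + COL was compared with MAT over 12470 genes, of which 86 were members. No member was called by edgeR, with or without the block (0% and 0%), and none by DESeq2; the same test called 0% and 0% of all genes. At an unadjusted p under 0.05 there were 2 of the 86 members without the block and 6 with it, against 51 and 618 of the 12470 genes. The TPM of every MAT + COL library lay above that of every MAT library for 7 of the 86 members, against 343 of the 12470 genes. It lay below for 2 members, against 102 genes. The Log2FC was positive for 62 members and negative for 24, with a median of 0.21 against 0.00 over all genes tested. That median was 0.11 without MAT + COL replicate 1 and 0.37 without MAT + COL replicate 3. The depth of the MAT + COL libraries was 16665013 to 17948600 counts, against 6568968 to 17936445 in MAT, and its part in this lean was not tested.

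The members with the smallest p for collagen were RIBC2 and DNAI7. RIBC2 was at 1.17, 0.95 and 0.87 TPM in MAT and 3.16, 2.63 and 2.71 in MAT + COL, without overlap, from 6, 13 and 9 counts and 42, 36 and 35 counts (Log2FC 1.44, SE 0.50, edgeR adjusted p = 1). DNAI7 was at 1.49, 1.47 and 1.36 TPM in MAT and 8.30, 2.75 and 1.95 in MAT + COL (Log2FC 1.46, SE 0.59, adjusted p = 1), and its Log2FC was 0.68 without the highest library, MAT + COL replicate 1. DYNC2I1 was lower in each MAT + COL library than in any MAT library, by a Log2FC of -0.31 (SE 0.14, adjusted p = 1). IFT80 was at 13.4, 14.1 and 5.81 TPM in MAT + COL, of which only replicate 3 lay in the MAT range (Log2FC 0.62, SE 0.34, adjusted p = 1). None of these differences passed the test.

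Both treatments together were read from MAT + COL against CYST, over 12509 genes and 87 members. This comparison shares its libraries with those above and is no independent repeat of them. DYNC2I1 was again called, with a Log2FC of -1.49 (SE 0.17) and an edgeR adjusted p of 0.0259, or 1.15% of the members against 1.49% of all genes. With the block IFT56 was called as well (Log2FC -1.51, adjusted p = 0.0482; without it -1.53, SE 0.29, adjusted p = 0.0545), or 2.3% against 5.26%. The call of DYNC2I1 held without CYST replicate 3 or MAT + COL replicate 3, and its adjusted p was 0.0877 to 0.123 without CYST replicate 1 or 2 or MAT + COL replicate 1 or 2. DNAAF11, a dynein assembly factor, was at 8.53, 8.98 and 15.3 TPM in CYST and 5.36, 3.23 and 5.83 in MAT + COL, without overlap (Log2FC -1.30, SE 0.44). Its edgeR adjusted p was 0.152, 0.0787 with the block and 0.0413 with the block in all 9 libraries, the only 1 of these fits that called it. The median over the members was 0.01, against 0.04 over all genes.

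Libraries with the same replicate number resembled each other across groups, and for some members the replicate number went with a larger difference than the treatment did. Over all 9 libraries, with the group as a term, edgeR called 3 of 90 tested members for replicate number (3.33%), against 9.92% of 12858 genes; this test was chosen after the data had been seen. FOXJ1 was the clearest: it was at 14.7, 19.1 and 16.4 TPM in the replicate 1 libraries of CYST, MAT and MAT + COL, at 5.88, 4.54 and 7.69 TPM in the replicate 2 libraries and at 3.71, 2.81 and 2.92 TPM in the replicate 3 libraries. The 3 numbers did not overlap, while the 3 groups overlapped. Of the sum of squares of its log2 CPM, 93.2% lay between replicate numbers and 0.30% between groups (edgeR adjusted p = 0.00945 for replicate number).

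**Figure D4:**
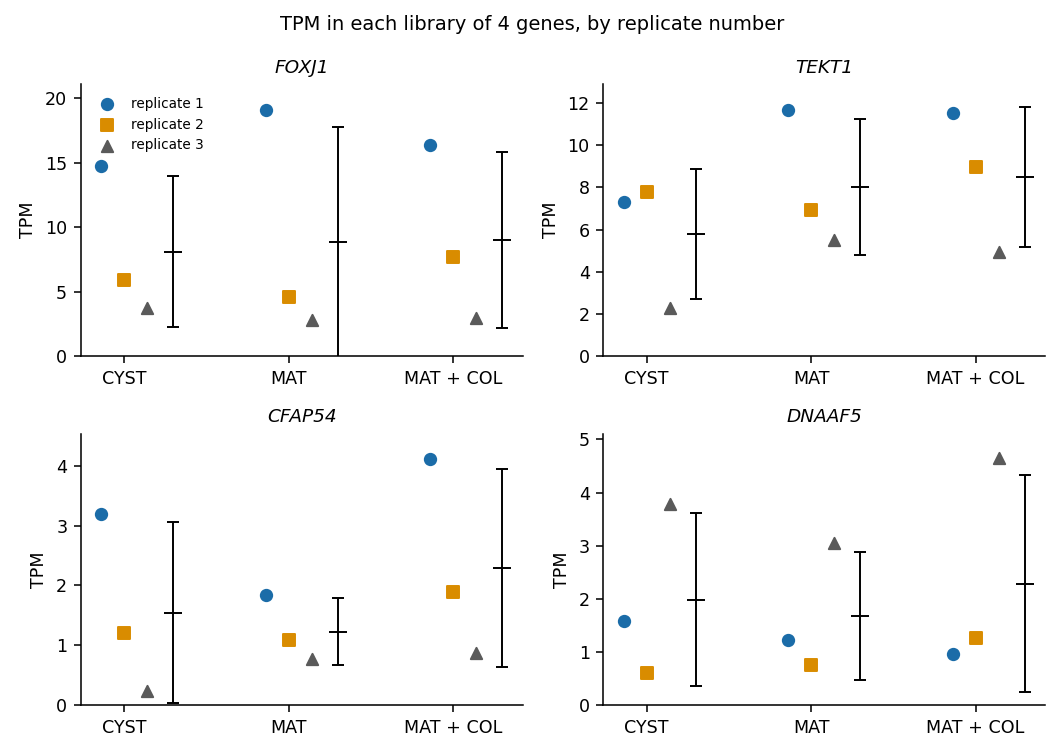
TPM of FOXJ1, TEKT1, CFAP54 and DNAAF5 in each of the 9 libraries, with the replicate number shown by the marker and the group mean ± SD as bars (n = 3; the bar of FOXJ1 in MAT is cut at 0). FOXJ1 is at 14.7 to 19.1 TPM in every replicate 1 library and at 7.69 TPM or below in all others, and DNAAF5 is highest in every replicate 3 library.

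The other members called for replicate number were CFAP54, a protein of the central apparatus, and DNAAF5, a dynein assembly factor. CFAP54 was at 3.20, 1.84 and 4.11 TPM in the replicate 1 libraries of CYST, MAT and MAT + COL and at 0.23, 0.77 and 0.87 TPM in the replicate 3 libraries (edgeR adjusted p = 0.0307). DNAAF5 went the other way, at 3.78, 3.04 and 4.64 TPM in the replicate 3 libraries and 0.60 to 1.58 TPM in all others (adjusted p = 0.0218). TEKT1 and CFAP300, a dynein assembly factor, had their lowest values of each group in replicate 3 and were not called (adjusted p = 0.0608 and 0.0699). The call of FOXJ1 was lost without MAT replicate 1 (adjusted p = 0.0629) and held in the 8 other sets of 8 libraries, while those of DNAAF5 and CFAP54 held in 5 and 3 of 9. DNAAF5 lost it without any 1 of the MAT libraries or MAT + COL replicate 3, and CFAP54 without CYST replicate 1, MAT replicate 1 or 2 or any 1 of the MAT + COL libraries.

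Over the 90 tested members the median share of the sum of squares was 28.7% between groups, 26.3% between replicate numbers and 38.8% in neither, against 29.9%, 32.0% and 24.3% over all genes tested. The count of members called for replicate number was 10 without CYST replicate 3 (10.9%, against 20.4% of all genes), and 1 without MAT replicate 1, MAT replicate 2 or MAT + COL replicate 3 (1.08% at most, against 3.79% to 4.07%). The sum of the stromal markers also went with replicate number. It was highest in replicate 3 of every group, at 3742 to 4798 TPM against 1191 to 3045 TPM in all others. PDGFRB went the other way in CYST and MAT + COL, where it was lowest in replicate 3. The part of stromal markers in the values of FOXJ1, CFAP54 and DNAAF5 was not tested.

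Other genes of the cilium were counted from 6 lists. Of all genes tested for MAT against CYST, 1.79% were called without the block and 10.6% with it. For MAT + COL against CYST these shares were 1.49% and 5.26%. Of 13 tested genes for further IFT, BBSome and motor proteins, 17 for basal body and ciliogenesis and 8 for hedgehog signaling, a pathway read through the primary cilium, none was called for MAT against CYST with or without the block, and their median Log2FC was -0.03, -0.12 and -0.09. Of 23 transition zone and ciliary membrane genes, none was called without the block and B9D1 and TMEM231, both of the gate complex at the ciliary base, were called lower with it. B9D1 was at 35.5, 34.3 and 24.7 TPM in CYST, 18.1, 11.8 and 12.1 in MAT and 17.4, 13.3 and 10.5 in MAT + COL. Its Log2FC was -1.18 for MAT against CYST (edgeR adjusted p = 0.0601, and 0.0226 with the block) and -1.26 for MAT + COL against CYST (adjusted p = 0.0473). In that last comparison INVS, a protein of the proximal ciliary shaft, was called higher with the block (Log2FC 0.96, adjusted p = 0.0659, and 0.0488 with it).

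Of 31 tested further motile cilium genes, only MYB, a transcription factor of multiciliated and of dividing cells, was called. It was at 4.74, 4.88 and 4.90 TPM in CYST, 0.74, 1.45 and 1.11 in MAT and 0.86, 0.42 and 0.99 in MAT + COL, with no overlap between CYST and either EGF group. For MAT against CYST its Log2FC was -2.13 (edgeR adjusted p = 0.0534, and 0.0264 with the block) and for MAT + COL against CYST -2.74 (adjusted p = 0.0416). Of 13 genes for centriole duplication and cilium disassembly, 12 had a negative Log2FC for MAT against CYST, with a median of -0.71. PLK1 was called without the block (Log2FC -1.68, edgeR adjusted p = 0.0476). With the block 4 of the 13 were called lower, namely PLK1, AURKA, NEK2 and KIF24, against 10.6% of all genes called in either direction. PLK1, AURKA and NEK2 are kinases of mitosis as well as of cilium disassembly, and PLK1 was at 25.7, 31.8 and 20.1 TPM in CYST against 4.50, 10.4 and 8.90 in MAT. NEDD9, a scaffold that activates AURKA, was called lower with the block for MAT + COL against CYST (adjusted p = 0.0468). No gene of the 6 lists was called for MAT + COL against MAT, with or without the block.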

How the data were processed

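The authors trimmed paired reads of SMART-Seq HT PLUS libraries and aligned them to ARS-UCD2.0 in CLC Genomics Workbench 25.0.1 with default parameters (per the labels and the study's methods). They deposited counts, the unnormalized number of reads on each gene, and TPM of the same genes. The annotation release and strand setting are not given in the sources used here. Of the members, 31 overlap another gene's region, 28 of them on the opposite strand, where reads of both genes cannot be told apart. Besides DNAH11 these include RIBC1, which overlaps HSD17B10 (70.8 TPM on average), and IFT20, which overlaps TMEM97 (211 TPM on average).

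Counts were tested in R 4.3.3 with edgeR 4.0.16 (filterByExpr with a minimum count of 10, TMM, glmQLFit and glmQLFTest, Benjamini-Hochberg adjustment over all genes tested) on the 6 libraries of each comparison, with a threshold of 0.05. SE was the Log2FC divided by the root of F. Group and replicate number came from the sample titles, and the library names carry other numbers. The paper reports that MAT and MAT + COL samples clustered mainly by individual and not by collagen I. Which libraries share an animal is not given. The names CYST, MAT and MAT + COL are those of the paper. The labels name no animal or culture, so p-values measure only the spread between these libraries. How much of that spread lies between animals and how much is technical is not given. The numbers were taken to pair the libraries on the values: across genes, deviations from the group means of same-numbered libraries correlated at 0.33, 0.44 and 0.40 for MAT and CYST, 0.47, 0.61 and 0.69 for MAT + COL and MAT, and 0.28, 0.35 and 0.35 for MAT + COL and CYST. The fit with this block is given where it changes a call. Depth was 6568968 to 17948600 counts per library.

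Alternatives were DESeq2 1.42.0, RLE size factors, no filter, all 9 libraries in one fit, limma 3.58.1 on log2(TPM + 1) or log2(TPM + 0.1) for genes above 1 TPM in 3 libraries or for all genes, and leaving out each library. The tests were tested on simulated data. The members and lists were chosen with earlier results of these data known. The genes named were the 9 single symbols of the rule, all called members, the 5 higher and 5 lower members with the smallest p for MAT against CYST, the 3 with the smallest p for each other comparison, and the highest member of each family. DYNC2LI1, DYNC2H1, DNAH6, IFT20, IFT22, CFAP36, CFAP54, CFAP300, DNAAF5, CDCA7L, HSD17B10, TMEM97 and the 4 members without a count were named after their values were seen. Deposited tables held no columns of comparisons. Figures were drawn with matplotlib 3.10.9.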

Additional observations from a re-analysis of the deposited data

How the results depend on the processing

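For MAT against CYST, 1 member was called by edgeR; the count was 4 with the replicate block (4.82% of members, against 10.6% of all genes), 5 with DESeq2 (5.62% against 9.9%), 2 with all 9 libraries in one fit (2.22% against 4.51%), 5 with the block in all 9 libraries (5.56% against 16.5%), and 0 with limma on log2(TPM + 1), on log2(TPM + 0.1) and on log2(TPM + 1) with no filter (against 2.02%, 1.75% and 0.458%), and it ranged from 0 to 2 over the sets without 1 library (against 0.0408% to 2.14%). The median Log2FC of the tested members, -0.28, was -0.13 with either pseudocount in limma, -0.10 with limma and no filter, and -0.35 to -0.070 without 1 library. For MAT + COL against CYST the count of 1 became 2 with the block (2.3% against 5.26%), 2 with DESeq2 (2.35% against 11.8%), 2 with all 9 libraries (2.22% against 4.67%), 3 with the block in all 9 libraries (3.33% against 15.8%) and 0 with limma and no filter (against 0.338%), and ranged from 0 to 1 without 1 library (against 0.0234% to 1.46%). The fits with the block in all 9 libraries were an addition made with the data in view. For replicate number the count of 3 became 12 in the MAT and MAT + COL libraries alone (of 86 tested, against 3123 of 12470 genes) and ranged from 1 to 10 without 1 library. For MAT + COL against MAT the count was 0 in every alternative. The sign of the Log2FC of FOXJ1 for MAT against CYST turned: it was -0.12 with the block, -0.073 with the block in all 9 libraries, -0.088 with limma on log2(TPM + 1) with and without the filter and -0.13 with limma on log2(TPM + 0.1), and it ran from -1.04 to 0.83 without 1 library. RFX2 was at 0.013 with all 9 libraries and 0.022 with the block in all 9, and ran from -0.21 to 0.16 without 1 library, IFT57 from -0.23 to 0.17 and RSPH3 from -0.039 to 0.16; none of these 4 was called for MAT against CYST in any fit. The causes were not tested. Of 289 values of named genes under alternatives with all libraries, 263 kept their sign and their side of the threshold, 4 lost a call, 15 gained one and 7 turned sign; of 198 values without 1 library these counts were 178, 9, 1 and 10. Apart from the calls named in the report, the block in the 6 libraries of a comparison changed no other call among the named members. With the block in all 9 libraries DYNC2I2 and DNAH6 were called for MAT against CYST and DNAAF11 for MAT + COL against CYST, and DNAH11 was not. DNAH6 passed the filter there only through its counts in CYST and MAT + COL. Of the 31 members that did not pass the filter for MAT against CYST, 7 passed it over all 9 libraries.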
